A study of Homo sapiens with 12 samples.

Results

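Metallothioneins are small cysteine-rich proteins that bind zinc and copper, and their genes are measured here in 2 EGFR-mutant non-small cell lung cancer lines before and after EGFR inhibition. The set held 8 genes, taken by symbol from a table of 60591: MT2A and the MT1 genes MT1E, MT1F, MT1G, MT1M and MT1X, the transcription factor gene MTF1, and SLC30A1, the gene of the zinc exporter ZnT1. RNA-seq counts came from 12 libraries in 6 groups of 2. PC9 and H1650 are established human lung adenocarcinoma lines that carry the same kind of activating deletion in EGFR, and no further edit was made to either line. In each line the groups were T0 (0.1% DMSO, collected at 0 h, when drug was added), erlotinib at 10 µM for 36 h, and osimertinib at 0.1 µM for 36 h. No vehicle library at 36 h was analysed, so a difference between drug and T0 includes 36 h in culture, and drug and time cannot be told apart. The labels number the replicates without saying that they came from separate cultures, and the study describes them as biological replicates. The p-values measure the spread between these libraries. In bulk RNA, fewer cells that express a gene and less RNA per cell cannot be told apart.

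Library totals ran from 17961765 to 26346187 counts, and 3 reads in a library corresponded to 0.116 to 0.168 CPM (reads of a gene scaled to a fixed number of counted reads per library). The epithelial markers EPCAM, KRT8, KRT18, KRT19 and CDH1 were at 185 CPM or more in all 12 libraries, but of the lung lineage markers NKX2-1, SFTPB and SFTPC had at most 4 reads in any library and NAPSA at most 1.85 CPM, so the labelled tissue of origin was not visible in them. Summed over each list, leukocyte markers ranged from 0.462 to 3.96 CPM and endothelial markers from 0.0933 to 3.76 CPM. The summed fibroblast markers ranged from 9.96 to 44.8 CPM, nearly all of it COL1A1, with DCN and LUM at 1 read or fewer. Mitochondrial transcripts took 4.36% to 5.36% of counts in the T0 libraries and 5.77% to 7.20% in the treated ones, and the part of this shift in the differences below was not tested.

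Metallothioneins buffer free zinc and copper in the cytosol and also take up heavy metals and oxidants. MTF1 (metal-responsive transcription factor) senses zinc and binds short promoter sequences called metal response elements, through which it drives both the metallothionein genes and SLC30A1. ZnT1, the product of SLC30A1, carries zinc out of the cell across the plasma membrane, so the members cover a sensor, a buffer and an exit route for the same metal. Metallothionein genes are also known to respond to glucocorticoids and to stress.

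RefSeq promoter windows, 250 bases before to 50 after the gene's start (GRCh38.p14), matched 4 of the 8 members: MT2A, MT1X, MTF1 and SLC30A1. The start is RefSeq's and is not the end of the GENCODE gene model given further on: the SLC30A1 window lies wholly upstream of that model, and the MT2A start lies inside it. The windows are shown because the core of the metal response element is the known link between these genes. Each window was searched on both strands for TGCACNC and TGCGCNC, the 2 forms of that core, and capitals mark the matches. The MT2A window (chr16:56608334-56608633, plus strand) held 8 matches, none overlapping another. The MT1X window (chr16:56682220-56682519, plus strand) held 4. The SLC30A1 window (chr1:211579112-211579411, minus strand) held 2, and the MTF1 window held none.
MT2A: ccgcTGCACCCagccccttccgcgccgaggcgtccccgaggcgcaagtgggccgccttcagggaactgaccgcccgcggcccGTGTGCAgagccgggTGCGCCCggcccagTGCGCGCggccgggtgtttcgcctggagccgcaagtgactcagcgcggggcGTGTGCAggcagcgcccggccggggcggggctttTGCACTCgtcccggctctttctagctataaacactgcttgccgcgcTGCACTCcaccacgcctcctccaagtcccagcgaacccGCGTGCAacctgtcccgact
MT1X: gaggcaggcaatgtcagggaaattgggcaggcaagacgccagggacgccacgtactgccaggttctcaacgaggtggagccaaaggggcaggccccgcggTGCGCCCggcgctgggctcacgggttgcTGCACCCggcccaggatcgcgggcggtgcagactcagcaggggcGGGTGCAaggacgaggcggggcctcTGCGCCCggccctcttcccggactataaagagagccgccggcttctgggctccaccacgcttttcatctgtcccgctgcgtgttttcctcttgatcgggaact
SLC30A1: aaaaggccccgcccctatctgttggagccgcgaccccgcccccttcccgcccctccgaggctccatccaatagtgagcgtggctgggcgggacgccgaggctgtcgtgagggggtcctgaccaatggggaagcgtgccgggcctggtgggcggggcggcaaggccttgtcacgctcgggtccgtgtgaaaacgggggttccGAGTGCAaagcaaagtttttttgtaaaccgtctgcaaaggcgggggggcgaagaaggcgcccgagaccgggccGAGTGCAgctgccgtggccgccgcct
Of 35116 windows of the same length, 29.6% held at least 1 match and 8.60% at least 2, the number found in the SLC30A1 window. At least 4 matches, as in MT1X, stood in 0.601% of windows, and at least 8, as in MT2A, in 0.0199%. The matches nearest upstream of the start began 8 bases before it in MT2A, 49 in SLC30A1 and 53 in MT1X. A match is a stretch of letters and not evidence that MTF1 bound there in these cells.

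The 6 metallothionein members lie together on chromosome 16, within 75998 bases from 56608199 to 56684196 (GRCh38, GENCODE 29). MT2A is at chr16:56608199-56609497, MT1E at chr16:56625475-56627112, MT1M at chr16:56632233-56633986, MT1F at chr16:56657694-56660698 and MT1X at chr16:56682424-56684196, all on the plus strand. MT1G is at chr16:56666731-56668065 on the minus strand. MTF1 (chr1:37809567-37859620) and SLC30A1 (chr1:211571568-211578742) lie far apart on the minus strand of chromosome 1. All 8 are protein-coding, and counts were taken over their exons. The metallothionein genes arose by duplication, so counting may move reads between them. Of the 50-base windows of each gene's longest transcript, 14.7% in MT1X, 14.3% in MT1G, 10.6% in MT1E, 7.05% in MT1M, 4.68% in MT2A and 0.0656% in MT1F also occurred in a transcript of another gene, and none in SLC30A1. At 100 bases such windows remained in MT1X, at 7.68%, where the overlapping transcript AC026461.1 on the same strand shares 321 exonic bases, and in MTF1, at 0.0508%. How multiply mapping reads were counted is not given in the sources used here, so values of the MT1 genes carry that uncertainty.

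MT2A was by far the most abundant metallothionein in both lines, and MT1G and MT1M were barely detected. A low-count filter left 6 members for testing. MT1G had 13 reads in all, of which 4 were in PC9 T0 replicate 2, 2 in PC9 erlotinib replicate 1 and 7 in PC9 erlotinib replicate 2. MT1M had 1 read, in PC9 T0 replicate 1. Where these genes had no read, a level up to the 3-read limit given above is allowed, so their absence from H1650 is a statement about this depth. Per kilobase of exon, MT2A stood first among the tested members in each of the 6 groups and SLC30A1 second. The deposited gene lengths were used (914 bases for MT2A, 1052 for MT1E and 5893 for SLC30A1), and the order depends on them. In PC9 T0 the mean level was 148 ± 4.30 normalised CPM per kilobase for MT2A, 22.7 ± 0.560 for SLC30A1, 5.04 ± 0.763 for MT1E, 4.50 ± 0.0565 for MTF1, 1.23 ± 0.0796 for MT1X and 0.982 ± 0.0806 for MT1F (SD, n = 2 here and below). MT1E and MTF1 overlapped in that order and the other neighbours did not. In H1650 T0, MT2A reached 465 ± 6.51 CPM per kilobase against 15.1 ± 0.776 for SLC30A1 and 12.4 ± 0.561 for MT1E, again without overlap. By level per kilobase, MT2A was at rank 48 of the 19108 tested genes in H1650 T0 and at rank 221 in PC9 T0.

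**Figure D1:**
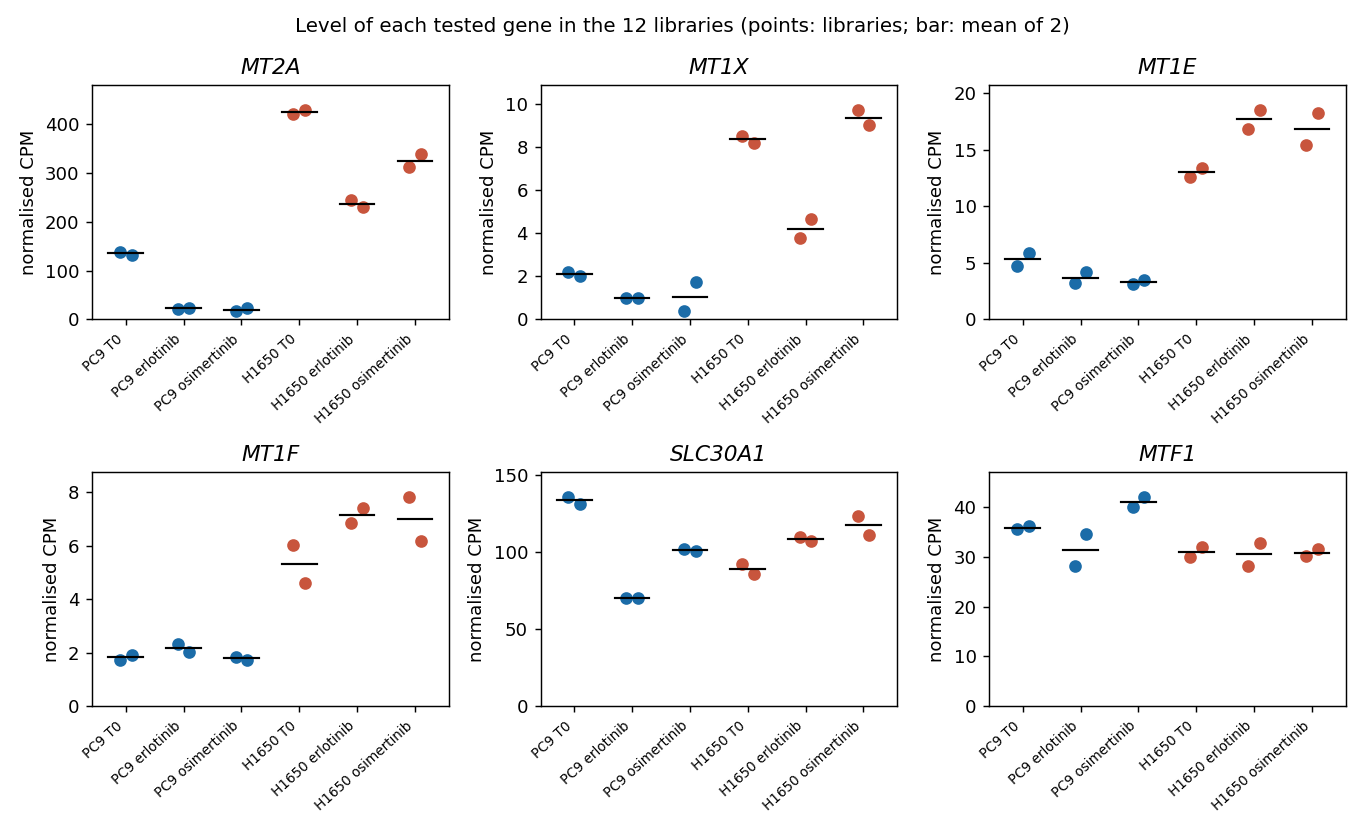
Normalised CPM (linear axis from 0) of the 6 tested genes in each of the 12 libraries; points are libraries (PC9 blue, H1650 red) and the black bar is the mean of 2. MT2A dropped from 138 and 133 to between 17.7 and 24.4 CPM in treated PC9, and in the panels of MT2A, MT1X, MT1E and MT1F every H1650 point lies above every PC9 point.

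In PC9, EGFR inhibition was compared with T0 to ask how transcripts of these genes changed by 36 h of EGFR inhibition. MT2A, MT1X, MT1E and SLC30A1 fell under both drugs, MT2A the most, while MT1F and MTF1 did not pass the test under either. Thus 4 of the 6 tested members were lower with erlotinib, where 29.1% of all tested genes were called lower, 32.7% higher and 61.8% in either direction. With osimertinib 4 of 6 were lower, against 28.7% of all genes lower, 32.7% higher and 61.4% in either direction. Calls were made with edgeR's quasi-likelihood test at a Benjamini-Hochberg adjusted p under 0.05 over 19108 genes, and the adjusted p-values below come from this test unless another is named.

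MT2A had 138 and 133 normalised CPM in the PC9 T0 libraries, 22.0 and 24.4 with erlotinib, and 17.7 and 22.8 with osimertinib. All treated libraries were far below both T0 libraries, and the drug groups overlapped each other. The log2 fold change was -2.54 (SE 0.0913, adjusted p = 3.4e-19) with erlotinib, a 5.84-fold lower level, and -2.75 (SE 0.0952, adjusted p = 1.2e-19) with osimertinib, 6.73-fold lower. Of all tested genes, 3.82% had a lower log2 fold change than MT2A with erlotinib and 3.07% with osimertinib.

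SLC30A1, the exporter, had 136 and 131 CPM at T0, 70.0 and 70.5 with erlotinib, and 102 and 101 with osimertinib. The 3 groups did not overlap, and the erlotinib libraries were the lowest. The log2 fold change was -0.93 (SE 0.0756, adjusted p = 1.8e-11) with erlotinib and -0.40 (SE 0.0751, adjusted p = 3.9e-05) with osimertinib.

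MT1X had 2.22 and 2.02 CPM at T0, 0.985 and 0.976 with erlotinib, and 0.370 and 1.74 with osimertinib. The osimertinib pair was far apart, resting on 8 and 31 reads, although both were below T0. MT1X fell by 1.11 on the log2 scale with erlotinib (SE 0.370, adjusted p = 0.00986) and by 1.08 with osimertinib (SE 0.386, adjusted p = 0.0152). Without osimertinib replicate 1 the second value was -0.29 (adjusted p = 0.503), and without osimertinib replicate 2 it was -2.50 (adjusted p = 2.6e-05). Without T0 replicate 1 it was -1.02 (adjusted p = 0.0574).

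MT1E had 4.74 and 5.87 CPM at T0, 3.22 and 4.18 with erlotinib, and 3.10 and 3.48 with osimertinib, and no treated library reached the T0 level. The log2 fold changes were -0.51 (SE 0.187, adjusted p = 0.0191) and -0.70 (SE 0.198, adjusted p = 0.00313). The erlotinib call was lost without T0 replicate 2 (-0.35, adjusted p = 0.210), without erlotinib replicate 1 (-0.35, adjusted p = 0.184) and with upper quartile scaling (-0.42, adjusted p = 0.0518), and the osimertinib call without T0 replicate 2 (-0.54, adjusted p = 0.0619).

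MT1F, the remaining tested metallothionein member, had 1.71 and 1.93 CPM at T0, 2.33 and 2.03 with erlotinib, and 1.85 and 1.74 with osimertinib. Its log2 fold changes were 0.26 (95% interval -0.30 to 0.81, adjusted p = 0.424) and -0.02 (-0.60 to 0.57, adjusted p = 0.981), so at 31 reads or more per library a fold change as large as that of MT2A lay outside these intervals. MTF1, the zinc sensor, had 35.6 and 36.2 CPM at T0, 28.1 and 34.7 with erlotinib, and 40.0 and 42.1 with osimertinib. It differed from T0 by -0.19 (-0.40 to 0.02, adjusted p = 0.110) and 0.19 (-0.02 to 0.40, adjusted p = 0.110). The first value became -0.35 (adjusted p = 0.0127) without erlotinib replicate 2, and the second 0.26 (adjusted p = 0.0264) with upper quartile scaling.

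In H1650, the same contrasts asked how these genes changed in a second line with an EGFR lesion of the same kind. MT2A fell again, but by less than in PC9, and SLC30A1 and MT1E, which fell in PC9, were higher than T0. With erlotinib 2 of the 6 tested members were called lower (MT2A and MT1X) and 2 higher (MT1E and SLC30A1), where 18.5% of all tested genes were lower, 18.0% higher and 36.5% called either way. With osimertinib 1 was lower (MT2A) and 2 were higher (MT1E and SLC30A1), against 17.9%, 17.8% and 35.7%.

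MT2A had 421 and 429 CPM in H1650 T0, 244 and 229.5 with erlotinib, and 311 and 339.8 with osimertinib, 3 groups without overlap. Every H1650 library, treated or not, exceeded the highest PC9 library. The log2 fold change was -0.84 (SE 0.0803, adjusted p = 2.8e-09) with erlotinib, 1.79-fold lower, and -0.38 (SE 0.0799, adjusted p = 0.000349) with osimertinib, 1.30-fold lower.

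MT1X had 8.54 and 8.22 CPM at T0, 3.77 and 4.66 with erlotinib, and 9.74 and 9.04 with osimertinib. Only the erlotinib pair was below T0. The log2 fold change was -0.99 (SE 0.251, adjusted p = 0.00243) with erlotinib and 0.16 (95% interval -0.31 to 0.64, adjusted p = 0.633) with osimertinib.

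SLC30A1 had 92.2 and 85.7 CPM at T0, 110.2 and 107 with erlotinib, and 124 and 111 with osimertinib. Both T0 libraries were below all 4 treated ones. It rose by 0.29 on the log2 scale with erlotinib (SE 0.0753, adjusted p = 0.00299) and by 0.40 with osimertinib (SE 0.0750, adjusted p = 9.9e-05). Without T0 replicate 2 the erlotinib value was 0.24 (adjusted p = 0.0683).

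MT1E had 12.6 and 13.4 CPM at T0, 16.9 and 18.5 with erlotinib, and 15.5 and 18.3 with osimertinib. The treated libraries were all above T0, by 0.44 (SE 0.143, adjusted p = 0.0156) and 0.37 (SE 0.143, adjusted p = 0.0422) on the log2 scale. With DESeq2 the adjusted p-values were 0.0830 and 0.150, and neither call was made. Leaving out 1 library moved the erlotinib value to between 0.37 and 0.51, with the call lost without T0 replicate 1 (0.40, adjusted p = 0.0968) and without erlotinib replicate 2 (0.37, adjusted p = 0.132). The osimertinib call was lost without T0 replicate 1 (0.33, adjusted p = 0.180), T0 replicate 2 (0.42, adjusted p = 0.0860) or osimertinib replicate 2 (0.25, adjusted p = 0.344).

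MT1F, at 6.02 and 4.59 CPM in T0, had 6.86 and 7.40 with erlotinib and 7.83 and 6.19 with osimertinib. Its differences of 0.43 (95% interval 0.02 to 0.85, adjusted p = 0.0960) and 0.41 (-0.01 to 0.82, adjusted p = 0.122) did not pass after adjustment. MTF1 ranged from 28.2 to 32.9 CPM over the 6 H1650 libraries and its groups overlapped. The intervals of its log2 fold changes, -0.24 to 0.19 with erlotinib and -0.22 to 0.20 with osimertinib, give the sizes of change that these libraries allow in this line.

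**Figure D2:**
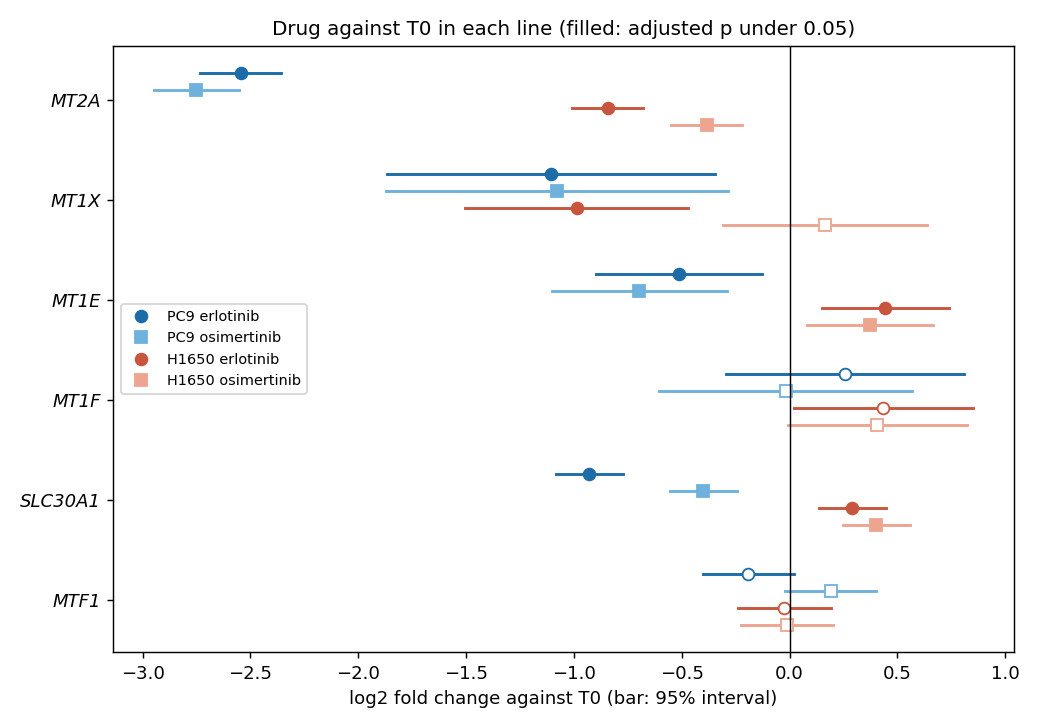
Log2 fold change against T0 (horizontal axis) of each tested gene under each drug and line; bars are 95% intervals and filled symbols have an adjusted p under 0.05. MT2A lies left of 0 in all 4 contrasts, from -2.75 in PC9 with osimertinib to -0.38 in H1650 with osimertinib, while MT1E and SLC30A1 lie left of 0 in PC9 and right of it in H1650.

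Whether the lines responded differently was tested as the H1650 log2 fold change minus the PC9 one. The responses of MT2A, SLC30A1 and MT1E differed between the lines under both drugs, and that of MT1X under osimertinib, always with the higher value in H1650. These were 3 of 6 members for erlotinib, where 21.1% of all tested genes had a higher response in H1650, 19.8% a lower one and 40.8% differed either way, and 4 of 6 for osimertinib, against 21.5%, 20.5% and 41.9%. For MT2A the difference was 1.70 (SE 0.122, adjusted p = 3.4e-12) with erlotinib and 2.37 (SE 0.124, adjusted p = 5.3e-15) with osimertinib. For SLC30A1 it was 1.22 (SE 0.107, adjusted p = 2.3e-10) and 0.80 (SE 0.106, adjusted p = 4.3e-07), and its direction against T0 was opposite in the lines. MT1E, with differences of 0.96 (SE 0.236, adjusted p = 0.00156) and 1.07 (SE 0.245, adjusted p = 0.000686), kept both calls in every fit that left out 1 library. The osimertinib difference of MT1X was 1.24 (SE 0.450, adjusted p = 0.0250), and it was 0.45 (adjusted p = 0.393) without PC9 osimertinib replicate 1, 1.18 (adjusted p = 0.0678) without PC9 T0 replicate 1, and 2.67 (adjusted p = 6.0e-05) without PC9 osimertinib replicate 2. With erlotinib MT1X fell by similar amounts, and the difference of 0.12 had an interval of -0.80 to 1.04 (adjusted p = 0.880). For MT1F the intervals were -0.51 to 0.87 and -0.29 to 1.14, and for MTF1 -0.13 to 0.47 and -0.50 to 0.10, none past the threshold.

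Erlotinib and osimertinib are EGFR kinase inhibitors of the first and the third generation, and osimertinib binds the receptor covalently. Their doses here differed (10 and 0.1 µM), so the values describe these 2 treatments and not the compounds at a matched dose. In PC9, SLC30A1 was 102 and 101 CPM with osimertinib and 70.0 and 70.5 with erlotinib, and MTF1 was 40.0 and 42.1 against 28.1 and 34.7. These 2 of 6 members were called higher with osimertinib, where 10.1% of all tested genes were higher, 6.41% lower and 16.6% were called either way. The log2 difference was 0.53 for SLC30A1 (SE 0.0762, adjusted p = 9.3e-06) and 0.38 for MTF1 (SE 0.103, adjusted p = 0.00920). The MTF1 call was lost without erlotinib replicate 1 (0.24, adjusted p = 0.209) and without osimertinib replicate 2 (0.34, adjusted p = 0.0853). MT2A, MT1E, MT1F and MT1X did not pass, with intervals of -0.42 to 0.00, -0.60 to 0.23, -0.83 to 0.28 and -0.84 to 0.90. Without osimertinib replicate 2 the MT2A difference of -0.21 (adjusted p = 0.192) became -0.39 (adjusted p = 0.0225).

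In H1650 a different pair of members stood apart. MT1X, at 9.74 and 9.04 CPM with osimertinib against 3.77 and 4.66 with erlotinib, was higher by 1.15 on the log2 scale (SE 0.251, adjusted p = 0.00265). MT2A, at 311 and 339.8 against 244 and 229.5 CPM, was higher by 0.46 (SE 0.0806, adjusted p = 0.000274). These were 2 of 6 members, where 5.02% of all tested genes were higher with osimertinib, 3.73% lower and 8.75% were called either way. SLC30A1, MT1E, MT1F and MTF1 had intervals of -0.04 to 0.27, -0.36 to 0.22, -0.44 to 0.38 and -0.20 to 0.23.

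The lines already differed at T0. All 4 tested metallothionein members were higher in H1650, while the exporter gene SLC30A1 was lower. These 5 of 6 members compare with 69.6% of all tested genes called between the lines, 35.8% higher and 33.8% lower. MT1A, a tested metallothionein gene outside the members, went the other way and was lower in H1650 (adjusted p = 2.4e-10). It had a mean of 5.23 CPM in PC9 T0 and at most 1 read in H1650 T0. From the T0 values given above, with no overlap between lines, MT2A was 3.14-fold higher in H1650 (log2 1.65, SE 0.0813, adjusted p = 3.4e-16) and MT1X 3.94-fold (log2 1.98, SE 0.285, adjusted p = 3.8e-07). MT1F was 2.89-fold higher (log2 1.53, SE 0.247, adjusted p = 2.6e-06) and MT1E 2.45-fold (log2 1.29, SE 0.165, adjusted p = 6.3e-08). SLC30A1 was lower in H1650 (log2 -0.59, SE 0.0749, adjusted p = 8.1e-08). MTF1 differed by -0.21 (95% interval -0.42 to 0.00, adjusted p = 0.0749), and by -0.21 (adjusted p = 0.0358) with the replicate number as a block.

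Under treatment the gap in MT2A widened to 10.2-fold with erlotinib (log2 3.35, SE 0.0904) and 16.2-fold with osimertinib (log2 4.02, SE 0.0940). MT1X was 4.29-fold higher in H1650 with erlotinib and 9.32-fold with osimertinib, MT1E 4.75-fold and 5.15-fold, and MT1F 3.28-fold and 3.89-fold, each with an adjusted p of 2.2e-06 or less. SLC30A1 changed sides: it was 1.55-fold higher in H1650 with erlotinib (adjusted p = 2.8e-08) and 1.16-fold with osimertinib (adjusted p = 0.0133). The latter call was lost without PC9 osimertinib replicate 2 (log2 0.21, adjusted p = 0.0554) or H1650 osimertinib replicate 1 (log2 0.13, adjusted p = 0.232). MTF1 was lower in H1650 with osimertinib (log2 -0.41, SE 0.103, adjusted p = 0.000916) and not called with erlotinib (-0.04, 95% interval -0.26 to 0.17). In all, 5 of 6 members were higher with erlotinib, where 36.7% of all tested genes were higher, 35.4% lower and 72.1% called either way. With osimertinib 5 were higher and 1 lower, against 36.6%, 35.0% and 71.6%.

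Because the metallothionein genes share some stretches of sequence, through which counting may move reads between them, the 6 metallothionein members were also summed. The sum in PC9 was 145 ± 3.01 CPM at T0, 30.2 ± 2.26 with erlotinib and 26.4 ± 4.73 with osimertinib, which is 4.79-fold and 5.49-fold lower. In H1650 it was 451 ± 5.31, 266 ± 8.28 and 359 ± 20.4 CPM, 1.70-fold and 1.26-fold lower. Each treated library lay below both T0 libraries of its line, and every H1650 library above every PC9 library. The summed level was 3.12-fold higher in H1650 than in PC9 at T0, 8.80-fold with erlotinib and 13.6-fold with osimertinib. MT2A supplied 93.5% ± 0.769 of the sum in PC9 T0 but 76.7% ± 0.194 with erlotinib and 76.8% ± 0.215 with osimertinib. In H1650 its share was 94.1% ± 0.212, 89.1% ± 1.16 and 90.7% ± 0.437. The remainder came from the MT1 members, of which MT1E was the most abundant in each of the 6 groups. MT1A, a further MT1 gene outside the sum, had a mean of 5.23 CPM in PC9 T0 beside 5.31 for MT1E. Per kilobase these means were 13.2 and 5.04.

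**Figure D3:**
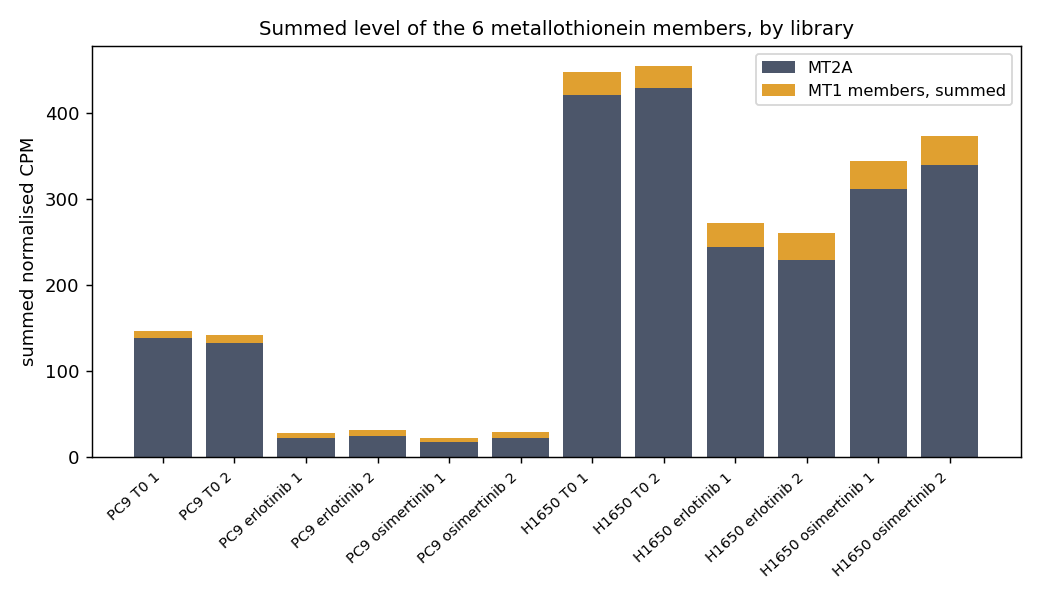
Summed normalised CPM of the 6 metallothionein members (vertical axis from 0) in each library, split into MT2A (grey) and the MT1 members (yellow). The PC9 sums are 147 and 143 CPM at T0 and 23.0 to 31.8 CPM after treatment, and the H1650 sums run from 260.1 to 455 CPM.

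Other genes of metal handling were taken from whole gene families and a list of copper genes. Of 15 further metallothionein genes and pseudogenes, 14 were in the table and only MT1A passed the filter. MT1A had 4.89 and 5.58 CPM in PC9 T0, 1.03 and 0.898 with erlotinib and 1.02 and 0.505 with osimertinib, and at most 1 read in any H1650 library. It fell in PC9 by 2.44 (adjusted p = 4.5e-06) and 2.74 (adjusted p = 1.7e-06) on the log2 scale, close to the values of MT2A. Against the 3-read limit its log2 level at T0 was lower in H1650 by at least 5.36, opposite in direction to the tested MT1 members.

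Of the 8 tested zinc exporters other than SLC30A1, 2 were higher and 2 lower in PC9 with erlotinib, 3 and 2 with osimertinib, none in H1650 with erlotinib, and 1 and 1 with osimertinib. Of all tested genes, 61.8%, 61.4%, 36.5% and 35.7% were called in these contrasts in the same order. Their median log2 fold changes were -0.09, 0.18, -0.06 and -0.06, beside 0.07, 0.06, 0.01 and 0.00 over all tested genes. In H1650, SLC30A4 and TMEM163 had at most 2 reads in any library, too few for a call. Over the other 6 exporters the H1650 medians were -0.0002 with erlotinib and -0.06 with osimertinib. SLC30A4, a vesicular exporter, had 4.44 to 5.04 CPM in PC9 T0 and 8.97 to 10.7 in treated PC9, rising by 1.08 (adjusted p = 2.0e-05) and 1.04 (adjusted p = 4.1e-05), with at most 2 reads in any H1650 library. TMEM163, a zinc efflux protein, had 7.31 to 7.66 CPM in PC9 T0 and 0.729 to 1.02 in treated PC9, and at most 1 read in any H1650 library. Its log2 fold change in PC9 was -2.99 (adjusted p = 2.1e-08) with erlotinib and -3.08 (adjusted p = 2.3e-08) with osimertinib. SLC30A2 was called higher in 3 contrasts but had 16 reads or fewer in every library. With at most 3 reads in any T0 library, it passed the low-count filter only through treated libraries. Its 3 calls, included in the exporter counts above, are not independent of the filter. SLC30A6 fell by 0.36 in PC9 with erlotinib (adjusted p = 0.00110) and by 0.29 in H1650 with osimertinib (adjusted p = 0.0153).

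Of the 12 tested ZIP importers, which bring zinc into the cytosol, 2 were higher and 7 lower in PC9 with erlotinib, 5 and 4 with osimertinib, 1 and 6 in H1650 with erlotinib, and 3 and 4 with osimertinib. Over all tested genes 32.7% were higher and 29.1% lower in PC9 with erlotinib, 32.7% and 28.7% with osimertinib, 18.0% and 18.5% in H1650 with erlotinib, and 17.8% and 17.9% with osimertinib. The median log2 fold changes of the importers were -0.24, 0.13, -0.29 and -0.07, beside 0.07, 0.06, 0.01 and 0.00 over all tested genes. SLC39A14, an importer of zinc, iron and manganese, was lower in all 4 contrasts, by 0.82, 1.09, 0.31 and 0.65 on the log2 scale in that order. SLC39A6 fell by 0.41, 0.45, 0.47 and 0.51, and SLC39A3 by 0.45, 0.83, 0.56 and 0.37. SLC39A11 rose in all 4, by 1.57, 1.35, 0.86 and 0.82. SLC39A8, at 50.4 and 55.5 CPM in PC9 T0, fell to 21.0 and 21.1 with erlotinib and 29.8 and 31.4 with osimertinib. Like SLC30A1 it was lower in PC9 with erlotinib than with osimertinib, and its response differed between the lines by 1.06 (adjusted p = 2.2e-08) and 0.80 (adjusted p = 1.9e-06). SLC39A13 rose in PC9 by 0.58 and 0.72 and in H1650 with osimertinib by 0.26. SLC39A2 was called higher with osimertinib in both lines at 27 reads or fewer per library. It had 1.01 and 1.25 CPM in PC9 with osimertinib and at most 0.353 CPM in any other library. SLC39A2 thus passed the low-count filter only through PC9 with osimertinib. Its call there, included in the importer count above, is not independent of the filter.

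Of the 13 copper genes, all tested, 5 were higher and 6 lower in PC9 under each drug, against 2 and 2 in H1650 with erlotinib and 1 and 3 with osimertinib. The share of all tested genes called also dropped, from 61.8% and 61.4% in PC9 to 36.5% and 35.7% in H1650. The medians of the copper genes were -0.17, -0.14, -0.08 and 0.05, beside the all-gene medians given above. STEAP4, a metalloreductase, rose most, from 1.53 and 1.92 CPM in PC9 T0 to between 39.7 and 58.1, and from 20.7 and 21.0 CPM in H1650 T0 to between 121 and 140.1. COX17, a copper chaperone of mitochondria, fell in all 4 contrasts by 1.22, 1.37, 0.56 and 0.46, and COMMD1 by 0.43, 0.49, 0.49 and 0.36. The copper exporters ATP7A and ATP7B rose in PC9, by 1.49 and 1.65 for ATP7A and by 2.55 and 2.82 for ATP7B, the latter from 0.247 and 0.706 CPM at T0. In H1650 neither passed, with values of 0.04 and 0.22 for ATP7A and -0.62 and -0.05 for ATP7B, and the differences between the lines were all called (adjusted p between 3.0e-08 and 3.9e-06). STEAP3 fell by 0.76 and 0.95 in PC9 and by 0.40 in H1650 with osimertinib.

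**Figure D4:**
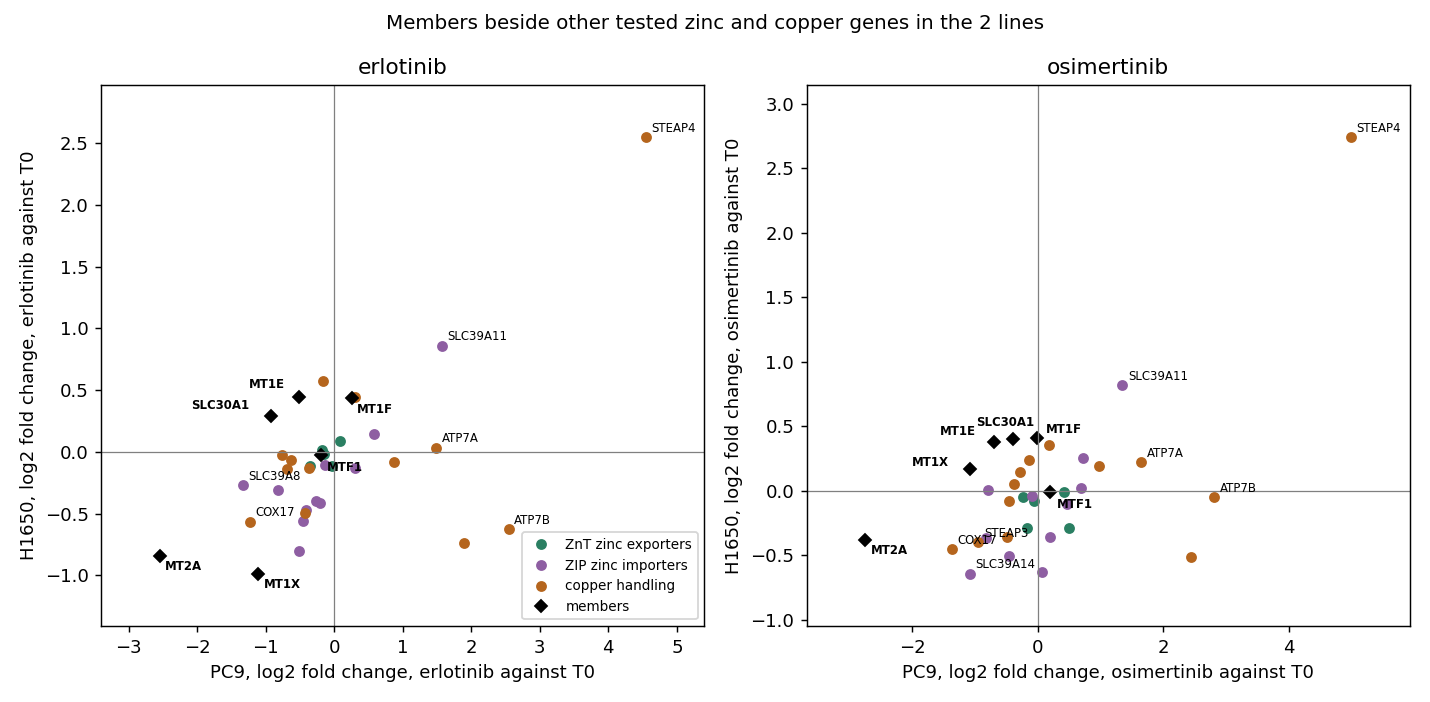
Log2 fold change against T0 in PC9 (horizontal) and H1650 (vertical) for the tested members (black diamonds) and the other tested zinc and copper genes (circles), erlotinib left and osimertinib right; 5 genes with 3 or fewer reads in each H1650 T0 library are not drawn. Among the genes drawn, MT2A is the leftmost point in both panels, at -2.54 and -2.75. TMEM163, which is not drawn, was lower still in PC9, at -2.99 and -3.08. SLC30A1 and MT1E lie at the upper left, lower in PC9 and higher in H1650.

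Across the 12 libraries, the genes whose log2 CPM followed each member most closely were ranked by Pearson's r among 10291 genes at 10 CPM or more. The libraries fall into 2 lines and share groups, so r is given as a description only. For MT2A the closest were ATP5MC1 (r = 0.997), CHEK2 (0.996) and CACHD1 (0.996). For MT1E they were MMD, PTCD3 and PTPN12 (0.994 to 0.993), for MT1F FPGT, HELZ2 and TFEB (0.994 to 0.989), and for MT1X ENY2, C19orf53 and PFDN6 (0.977 to 0.965). SLC30A1, whose groups did not separate by line, was followed by ZBTB18 (0.970), B3GNT3 (0.946) and ARHGAP18 (0.939). MTF1, with the narrowest range of the tested members, was followed by TRIM32 (0.925), SCAF11 (0.915) and TRIM39 (0.885).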

How the data were processed

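PolyA-selected RNA from PC9 and H1650 cells was sequenced, and DolphinNext was the pipeline that the authors ran on the reads. The deposited table holds featureCounts counts per gene symbol for 60591 genes, not normalised, and a column of gene lengths in bases. The submitters' processing notes name GRCh38 and DESeq2. The aligner, annotation release and strand setting are not given in the sources used here.

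All 12 libraries (2 per group) entered 1 fit in edgeR 4.0.16 under R 4.3.3, with TMM factors (0.941 to 1.08), the default low-count filter by group (19108 genes kept) and quasi-likelihood tests of 11 contrasts. Adjusted p-values are Benjamini-Hochberg over all tested genes, called under 0.05. SEs and 95% intervals are Wald values from the fit. Levels are TMM-normalised CPM, per kilobase where genes are compared. DESeq2 1.42.0, RLE and upper quartile scaling, 2 other filters (no filter beyond 1 count in all, and 10 counts in every library), a threshold of 0.01, separate fits per line, the replicate block and leaving out each library were alternatives. The scripts were tested on simulated data.

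The members and lists were chosen with earlier results of these data known. Genes named from the lists are those that passed with 1 sign in each of the 4 drug contrasts and, per list, up to 3 at each end by mean log2 fold change among genes called in at least 2. For likeness, the 3 highest r per member were named. Shared transcript windows were found with blastn 2.17.0 in GENCODE 29 transcripts, and motifs in RefSeq promoters. The 3-read limit covers counting error only.

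The labels do not say whether same-numbered replicates were paired. Over 15 pairs of groups, the correlation of their deviations was always positive, from 0.000266 to 0.380, and 11 exceeded 0.1. Same-numbered libraries may thus share part of their spread, the source of which was not tested. The main fit had no term for it, and the replicate block was an alternative. No replicate pair agreed within sampling noise (chi-square per degree of freedom 4.03 to 7.16).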

Additional observations from a re-analysis of the deposited data

Results flagged for a closer look

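A test of the difference between PC9 and H1650 in the response to the same drug singled out 7 results, each as the H1650 minus the PC9 log2 fold change. With erlotinib they were MT2A (1.70, adjusted p = 3.4e-12), SLC30A1 (1.22, adjusted p = 2.3e-10) and MT1E (0.96, adjusted p = 0.00156). With osimertinib they were MT2A (2.37, adjusted p = 5.3e-15), MT1X (1.24, adjusted p = 0.0250), MT1E (1.07, adjusted p = 0.000686) and SLC30A1 (0.80, adjusted p = 4.3e-07). In all 7 the H1650 value was the higher one, through a smaller fall for MT2A, through opposite directions for MT1E and SLC30A1, and through a fall in PC9 without a called change in H1650 for MT1X. DESeq2 called neither rise of MT1E in H1650 (adjusted p = 0.0830 and 0.150) nor the MT1X difference (adjusted p = 0.0596). Without PC9 osimertinib replicate 1, the log2 fold change of MT1X in PC9 with osimertinib was -0.29. Groups of 2 libraries are too small for a test of single outlying libraries.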

How the results depend on the processing

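MT2A kept its direction and call in all 4 drug contrasts and both line differences under every alternative, and SLC30A1 in the same 6 except H1650 with erlotinib. With 10 counts in every library, 1 of 5 members was called between the drugs in H1650, since MT1X was then not tested. Leaving out a library gave 1 to 2 members called between the drugs in PC9. Upper quartile scaling gave summed levels of 141 CPM in PC9 T0 and 443 in H1650 T0, and adding the other metallothionein genes 150.3 in PC9 T0. The replicate block changed 1 member call, MTF1 at T0, and raised the genes called between the drugs in H1650 from 1672 to 2670. Sign changes occurred only in values that were not called. With osimertinib, MT1F in PC9 and MTF1 in H1650 became 0.055 and 0.0059 with upper quartile scaling and 0.030 and 0.0086 with 10 counts in every library. Leaving out a library, MT1F ranged from -0.10 to 0.065 in PC9 with osimertinib, from -0.20 to 0.14 between the drugs in H1650 and from -0.0062 to 0.40 in the erlotinib difference between lines. MTF1 ranged from -0.15 to 0.085 (erlotinib) and -0.053 to 0.036 (osimertinib) in H1650, from -0.093 to 0.14 between the drugs there, and from -0.18 to 0.12 between lines with erlotinib. Between the drugs, MT1E ranged from -0.19 to 0.047 in H1650 and from -0.35 to 0.022 in PC9, and MT1X from -1.39 to 0.82 in PC9. MT1X ranged from -0.031 to 0.29 in the erlotinib difference between lines. Beside the calls already described, MTF1 in PC9 was called with osimertinib under upper quartile scaling (0.26) and 10 counts in every library (0.24), and with erlotinib in the fit of PC9 alone (-0.23), and lower in H1650 T0 with no filter (-0.26), and DESeq2 lost the osimertinib difference of MT1X (adjusted p = 0.0596) and no filter that of MT1E in H1650 with osimertinib (adjusted p = 0.0742). The causes were not tested. The stricter threshold of 0.01 removed 6 of the member calls. Depth limits MT1X most, at 8 reads in 1 library, and left MT1G and MT1M untested.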
